A study of Homo sapiens with 50 samples.

Results

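The nuclear genes for the mitochondrial respiratory chain and ATP synthase were examined in H1299 cells, a human non-small cell lung carcinoma line, and in H1299shRAD9, the same line carrying a stable short hairpin RNA against RAD9. Members were taken by name from the array annotation: genes whose symbols begin with NDUFA, NDUFB, NDUFC, NDUFS, NDUFV, UQCR, ATP5, COX4I, COX5, COX6, COX7 or COX8, together with SDHA, SDHB, SDHC, SDHD and CYC1. This gave 92 genes of 24044 named genes on the array, read by 116 probes, and each gene was followed by the probe with the highest mean level. The rule itself uses names alone. Each line was sampled in 5 states, with 5 arrays in each of the 10 groups. CTL cells were sham treated, DBP and DBN cells were hit directly by 1 Gy of alpha particles (helium ions), and BP and BN cells were their unirradiated neighbours on the same dish. In the P states the neighbours formed micronuclei, a sign of chromosome damage, and in the N states they did not. RNA was taken 4 h after exposure. The H1299 cells carried no vector, and per the study's methods H1299shRAD9 was represented by a pair of stable clones used interchangeably, with no record of which clone went to which array. Dishes were sorted into the P and N states by the micronucleus count, so these states are themselves outcomes.

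The respiratory chain passes electrons from NADH and succinate to oxygen through complexes I to IV, and complex V, the ATP synthase, uses the resulting proton gradient to make ATP. Most subunits are encoded in the nucleus and imported, while a small set is encoded in mitochondrial DNA. Complexes I, III, IV and V are thus built from both genomes, and complex II from nuclear genes alone. Nuclear subunit genes are known targets of the transcription factors NRF1, GABP of the ETS family, YY1 and SP1.

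Promoters of 74 of the 92 members were matched in RefSeq (GRCh38.p14), each a window of 250 bases before to 50 after the annotated start, and were searched on both strands. The NRF1 core GCGCATGC stood in 18.9% of the members' windows and in 3.27% of all 27305 windows. The ETS motif CCGGAAG stood in 27.0% and 10.7%, the YY1 motif AAGATGGC in 14.9% and 3.03%, and the SP1 motif GGGCGG in 55.4% and 44.6%. Each motif was counted on its own, so that matches of different motifs may share bases, and a match is a description of letters, not a binding site. The 120 bases before the start are printed for some of the members named below, with matches in capitals. COX8A among them was called in no comparison. Of the members called below, NDUFAF4, NDUFA12, ATP5G1 and COX6B2 hold no match in this stretch and are not printed. NDUFS6 (chr5:1801287-1801406, plus strand) holds the NRF1 core and an SP1 match, ATP5G2 (now ATP5MC2, chr12:53676084-53676203, minus strand) the NRF1 core, and COX8A (chr11:63974500-63974619, plus strand), the widely expressed form of its subunit, an ETS match. NDUFV1 (chr11:67606816-67606935, plus strand) and COX8C (chr14:93347062-93347181, plus strand), the form known from testis, hold none in this stretch.
NDUFS6: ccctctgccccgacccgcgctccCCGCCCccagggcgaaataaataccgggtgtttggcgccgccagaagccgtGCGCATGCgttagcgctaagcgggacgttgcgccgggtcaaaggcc
ATP5G2: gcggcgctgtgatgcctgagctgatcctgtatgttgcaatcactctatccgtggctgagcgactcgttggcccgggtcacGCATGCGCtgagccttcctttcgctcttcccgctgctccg
COX8A: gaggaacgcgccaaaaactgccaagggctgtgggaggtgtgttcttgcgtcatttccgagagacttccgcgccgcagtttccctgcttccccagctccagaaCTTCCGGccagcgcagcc
NDUFV1: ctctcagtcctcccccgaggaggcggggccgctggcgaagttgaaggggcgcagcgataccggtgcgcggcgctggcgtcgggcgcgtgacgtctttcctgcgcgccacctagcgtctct
COX8C: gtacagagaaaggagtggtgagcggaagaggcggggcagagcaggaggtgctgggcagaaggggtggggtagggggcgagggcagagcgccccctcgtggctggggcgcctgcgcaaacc

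A level here is the log2 of the processed array signal minus the median of that array, so that 0 is the median probe. RAD9A, the targeted transcript, stood at 3.85, 3.71, 3.70, 3.34 and 3.64 in the unirradiated H1299shRAD9 arrays and at 4.00, 4.00, 4.18, 3.82 and 4.05 in the unirradiated H1299 arrays. The mean was lower by 0.36 on the log2 scale, which leaves 77.9% of the H1299 signal (2-sided exact permutation p = 0.0159, 0.0794 after adjustment over the 5 states). In the other states the difference ran from -0.34 to 0.06, with exact permutation p from 0.0714 to 0.873. KRT8, KRT18, VIM and NRAS were well above background on all 50 arrays. PECAM1 and ALB, markers of endothelium and liver, were well above background on 2 and 3 arrays, and PTPRC, DCN and SFTPC on 50, 44 and 48 at mean levels from -1.29 to 0.57. Between 55.1% and 83.2% of probes were well above background on an array. The highest share was that of H1299 DBN replicate 1, which stood apart from the other arrays. The lines shared only 2 of the 13 slides, so that line and slide can hardly be told apart in the comparisons of lines.

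Of the 92 members, 88 were well above background on over 75% of the arrays and entered the tests, and 86 of them were so on every array. COX4I2, COX7A1, NDUFA4L2 and the pseudogene UQCRBP1 did not pass. The members were bright, with a median level of 8.39, above 94.8% of the 20079 features tested, and none was saturated on any array. The median over the 88 members, taken array by array, lay between 8.20 and 8.69 in H1299shRAD9. In H1299 it lay between 8.06 and 8.57, apart from DBN replicate 1 at 7.59 and DBN replicate 2 at 8.82. This value moved with the width of the signal distribution of an array: its correlation with the distance from the median to the 75th percentile was 0.88 over 50 arrays, and 0.75 without the 2 arrays farthest from the middle. After quantile normalization, which gives every array one distribution, the pairwise correlation of members within groups had a median of 0.12 in place of 0.50.

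**Figure D1:**
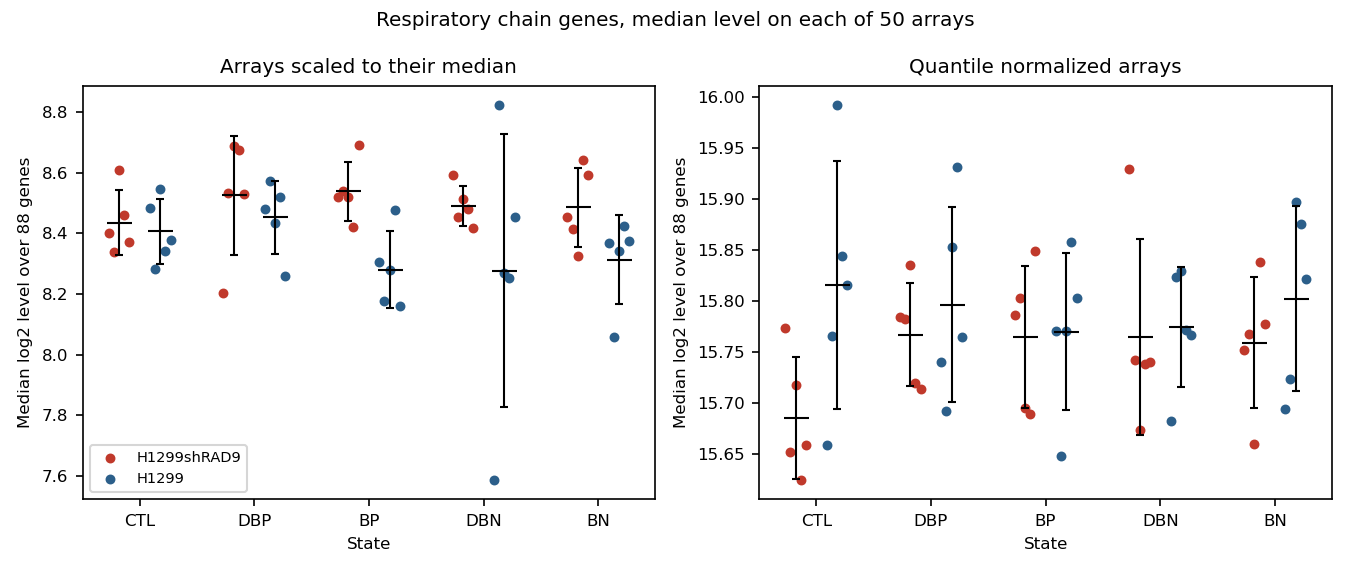
Median log2 level over the 88 tested genes on each array (points), by state and cell line, with the mean and SD of each group of 5 (black). Left, arrays scaled to their own median, where H1299 DBN replicates 1 and 2 lie at 7.59 and 8.82. Right, the same after quantile normalization, where the group means of the lines stand in the opposite order in every state.

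The central subunits are given by the range of their means over the 10 groups. In complex I, which oxidises NADH, the group means ran from 6.59 to 6.87 for NDUFS1 and from 7.45 to 7.76 for NDUFS7, both subunits that carry or surround the iron-sulfur clusters. NDUFV1, which binds NADH, ran from 8.27 to 8.78. In complex II, the iron-sulfur subunit SDHB ran from 7.20 to 7.68, and the flavin subunit SDHA had group means up to 8.37, with its lowest in H1299 BP. These spans compare with SDs of 0.07 to 0.66 among the 5 arrays of a group.

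In complex III, CYC1 (cytochrome c1) ran from 7.29 to 7.41 and the Rieske protein UQCRFS1 from 9.90 to 10.31. In complex IV, the oxidase that hands electrons to oxygen, COX4I1 ran from 9.44 to 9.68 and COX5A from 8.18 to 8.85. In the catalytic head of the ATP synthase, ATP5A1 ran from 9.06 to 9.23 and ATP5B from 8.93 to 9.17. ATP5G1, ATP5G2 and ATP5G3, which encode one identical mature subunit c of the rotor, had group means of 7.24 to 7.89, 9.69 to 10.17 and 10.09 to 10.53. The median within-group SD of a member was 0.25, against 0.33 over all features and 0.28 over 2944 other features of like level.

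The first question was whether the chain differed between the cell lines within a state. A feature was called at p below 0.005 with an adjusted p below 0.1 (limma, Benjamini-Hochberg over 20079 features). Of the 88 members, 4 were called in CTL, where 13% of all features were called. In CTL, 3 of the 4 were higher in H1299shRAD9 (6.9% of all features were called higher) and 1 was lower (6.07%). In DBP 1 member, COX8C, was called, lower, where 5.39% of all features were called, 1.86% higher and 3.54% lower. In BP 1 was called, higher, where 6.57% were called, 4.06% higher and 2.51% lower. In DBN none was called at 2.47% of all features, with 6 members (6.82%) at an unadjusted p below 0.05, beside 17.1% of all features. In BN 4 were called at 7.52%, 3 of them higher (4.48%) and 1, COX8C again, lower (3.03%). COX8C passed the background filter only through its H1299 arrays, so that its calls are no support for a difference among the members. The share of members called was thus 4.55%, 1.14%, 1.14%, 0% and 4.55%, in each state below that of all features.

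**Figure D2:**
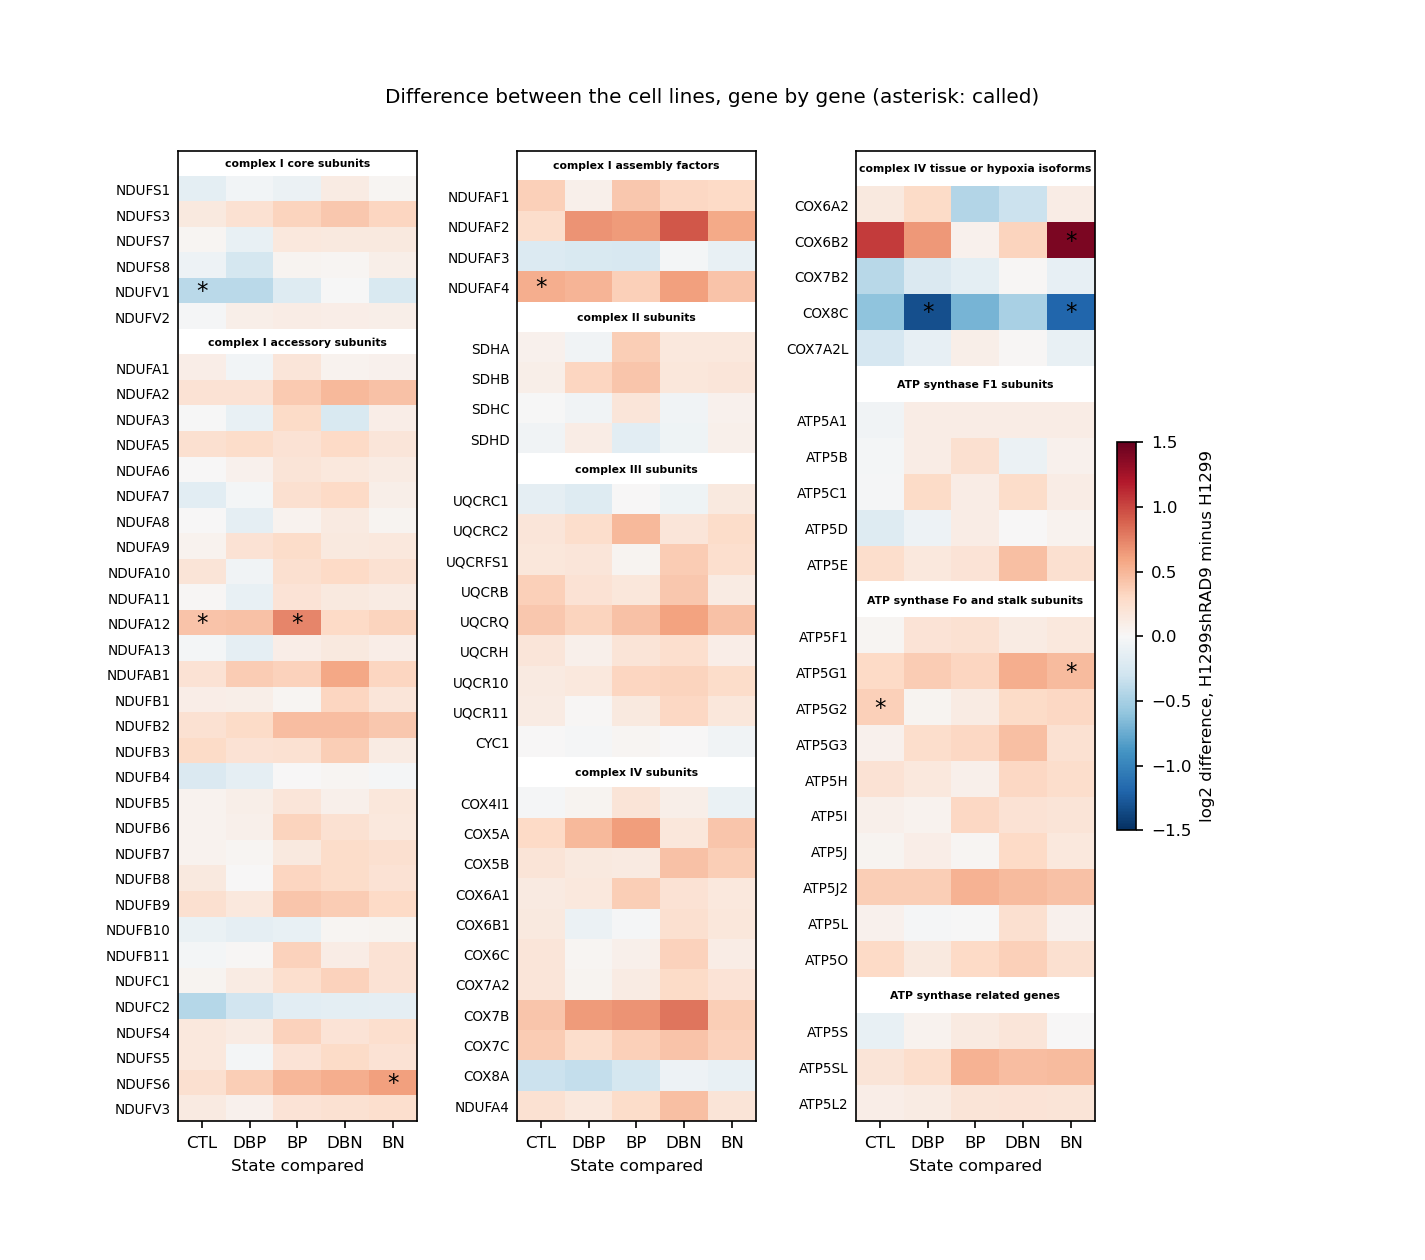
Log2 difference H1299shRAD9 minus H1299 for the tested genes reported here (rows, by complex) in the 5 states (columns), on a colour scale from -1.5 to 1.5, with an asterisk where the difference was called. Asterisks fall on 10 cells and 8 genes, and COX8C and COX6B2 carry the deepest colours.

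In CTL, NDUFAF4, an assembly factor of complex I, stood at 6.12, 6.22, 6.12, 6.37 and 6.34 in H1299shRAD9 and at 5.54, 5.47, 5.74, 5.93 and 5.74 in H1299. The groups did not overlap, and the difference was 0.55 ± 0.11 (SE) with an adjusted p of 0.0120. NDUFV1 went the other way, at 8.33, 8.17, 8.44, 8.25 and 8.15 in H1299shRAD9 against 8.83, 8.60, 8.74, 8.53 and 8.66. It was lower by 0.41 ± 0.10 on the log2 scale (difference -0.41, adjusted p = 0.0236), again without overlap. NDUFA12, an accessory subunit of complex I, stood at 8.45, 8.77, 8.63, 8.49 and 8.38 against 8.37, 8.05, 8.03, 7.95 and 8.15, with no overlap and a difference of 0.43 ± 0.12 (adjusted p = 0.0295). ATP5G2 stood at 10.02, 10.20, 10.33, 10.23 and 10.05 against 9.95, 9.70, 9.88, 9.74 and 9.79. Its difference was 0.36 ± 0.10 (adjusted p = 0.0351). Under the alternatives tried, the call held in 17 of 19 for NDUFAF4, 11 of 18 for NDUFV1, 5 of 20 for NDUFA12 and 4 of 18 for ATP5G2.

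NDUFA12 was called again in BP, on other arrays, at 8.04, 8.55, 8.64, 8.43 and 8.74 in H1299shRAD9 against 7.53, 7.53, 7.91, 8.26 and 7.52 in H1299. The difference was 0.73 ± 0.19 (adjusted p = 0.0532), although H1299 replicate 4 lay above H1299shRAD9 replicate 1. On the slide that held a BP array of each line, NDUFA12 was higher by 0.52 in the H1299shRAD9 array. In that pair of arrays the median difference was 0.41 over the members and 0.25 over all features. The call was lost without any one of 7 of the 10 BP arrays, with the value between 0.67 and 0.86 over all 10 omissions. A second probe for NDUFA12 gave 0.27 in CTL, short of the call.

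In BN, NDUFS6, an accessory subunit near the iron-sulfur clusters of complex I, stood at 8.61, 8.46, 8.53, 8.67 and 8.65 in H1299shRAD9 and at 7.84, 7.78, 7.89, 8.25 and 8.06 in H1299. All 5 values of one line lay above all 5 of the other, with a difference of 0.62 ± 0.12 (adjusted p = 0.0181). ATP5G1 stood at 7.81, 7.62, 7.97, 7.96 and 7.90 against 7.35, 7.06, 7.53, 7.45 and 7.48, a difference of 0.48 ± 0.13 (adjusted p = 0.0514). The NDUFS6 call held in 17 of 18 alternatives and that of ATP5G1 in 7 of 17. ATP5G1 had an unadjusted p below 0.05 in all 5 states, with differences of 0.30, 0.38, 0.33, 0.54 and 0.48 in CTL, DBP, BP, DBN and BN, and passed the call only in BN. ATP5G1 and ATP5G2 were both higher in H1299shRAD9 at the called state under median scaling, while under quantile normalization the calls of ATP5G2 in CTL and ATP5G1 in BN were lost at 0.18 and 0.28.

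**Figure D3:**
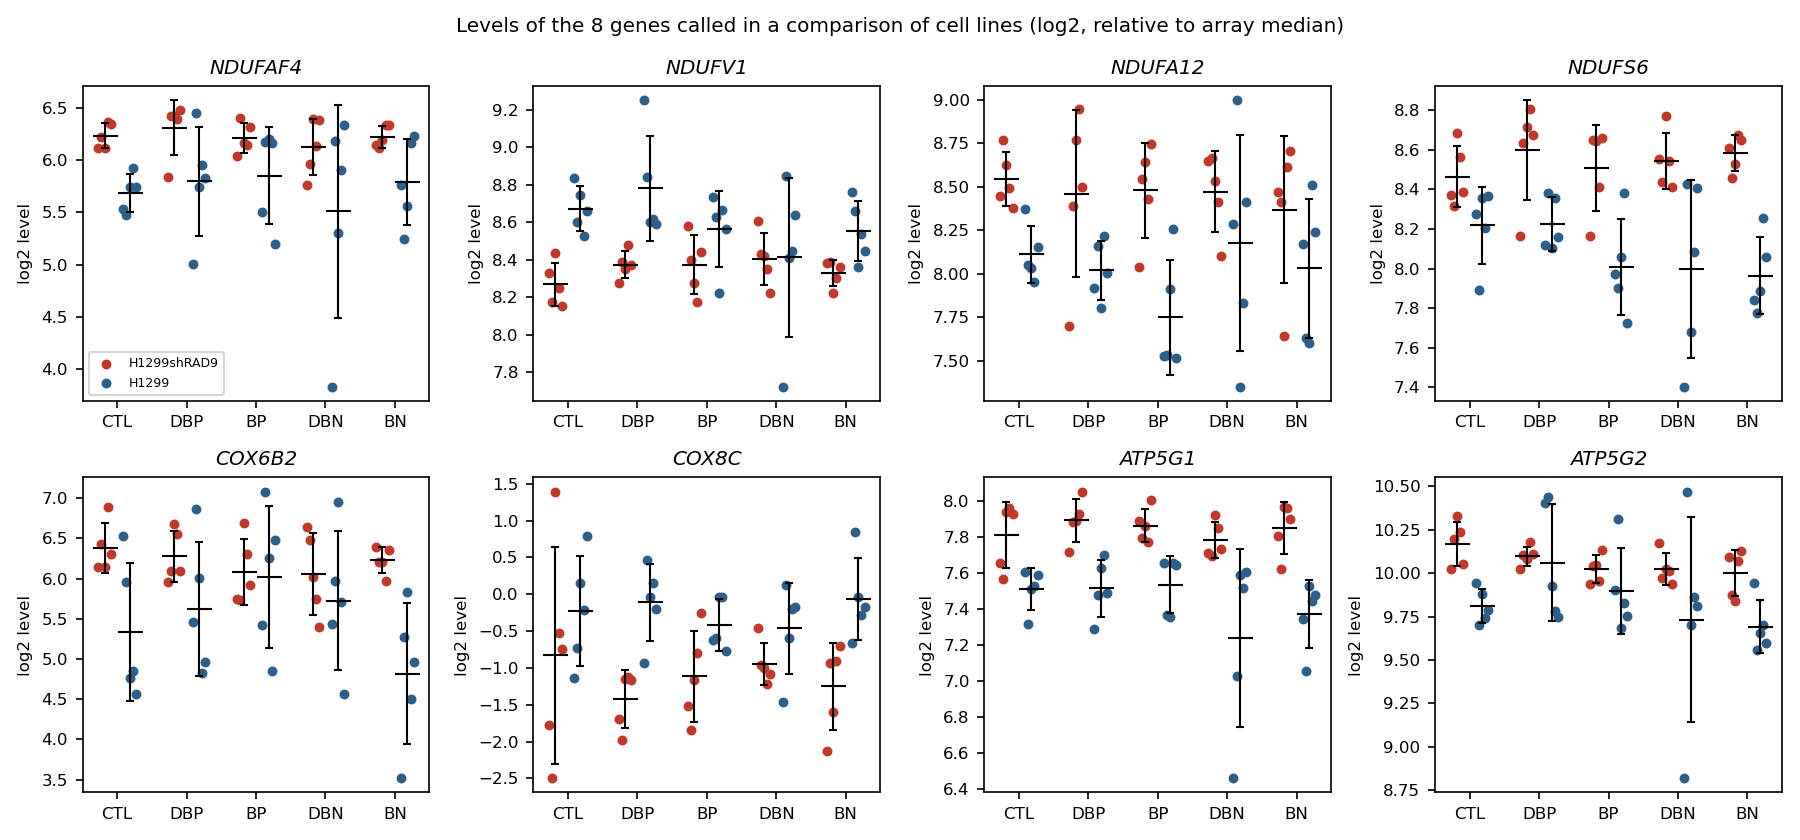
Log2 level of the 8 genes called in any comparison of lines, array by array (points), with the mean and SD of each group of 5 (black), by state and line. NDUFV1 lies lower in H1299shRAD9 in CTL, COX6B2 spreads widely in H1299, and H1299 DBN replicate 1 is the low point of NDUFAF4, NDUFV1, NDUFS6 and both ATP5G genes.

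Isoforms tied to certain tissues or to low oxygen were followed one by one. COX6B2, the form of subunit VIb known from testis and from some tumours, was well above background on all 50 arrays. In BN it stood at 6.39, 6.21, 6.21, 5.98 and 6.35 in H1299shRAD9 and at 3.52, 5.27, 5.84, 4.50 and 4.96 in H1299, with no overlap and a difference of 1.41 ± 0.33 (adjusted p = 0.0329). In CTL the H1299 values of 6.53, 5.96, 4.76, 4.85 and 4.57 overlapped those of H1299shRAD9, at 6.15, 6.43, 6.14, 6.89 and 6.30, and the difference of 1.05 was not called (adjusted p = 0.0587). A second COX6B2 probe gave 0.34 in BN (adjusted p = 0.215). COX8C was dim. In DBP it stood at -1.69, -1.98, -1.15, -1.12 and -1.17 in H1299shRAD9 and at -0.93, 0.47, -0.03, 0.16 and -0.20 in H1299. The difference of the measured means was -1.31 there and -1.19 in BN, given as a description. Its probe exceeded background clearly on 18 of 25 H1299shRAD9 arrays, in DBP on 2 of 5, and on all 25 H1299 arrays, so that the dim values in H1299shRAD9 lie near the detection limit and the size of the difference is uncertain.

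COX7B2, another form known from testis, was well above background on every array, with group means from 6.26 to 6.69 and no call. COX6A2, the muscle form of subunit VIa, was well above background on 14 of 25 H1299shRAD9 arrays and on all 25 H1299 arrays, while its group means of -1.59 to -1.11 and -1.58 to -1.06 in the lines covered the same range. COX4I2, the form tied to low oxygen, and COX7A1 were well above background on 12 and 6 of the 50 arrays. NDUFA4L2, a HIF1 target that can take the place of NDUFA4, was well above background on 8 H1299 arrays and on no H1299shRAD9 array. Those 8 were replicates 1 and 2 of CTL, DBP, DBN and BN. In CTL the H1299 values were -1.15, -1.67, -3.14, -3.21 and -3.94, so that the same line held both detected and undetected dishes before any irradiation. Values on arrays where the probe was not well above background are bounds, not levels.

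By complex, counts of calls were small throughout, and the direction of the medians did not survive every scaling. In CTL the median difference was -0.07 for the 7 core subunits of complex I, 0.08 for the 30 accessory subunits, 0.16 for the 9 subunits of complex III, 0.18 for the 11 of complex IV, -0.02 for the 5 of the F1 head and 0.15 for the 10 of the Fo rotor and stalks. The median of all features was 0.06. Over the 88 members the median was 0.10, 0.09, 0.20, 0.23 and 0.17 in CTL, DBP, BP, DBN and BN, beside 0.06, 0.10, 0.12, 0.16 and 0.13 for all features. After quantile normalization it was -0.05, -0.00, -0.05, 0.01 and -0.03, turning below 0 in CTL, DBP, BP and BN. Under median scaling, 51 of 88 members (58.0%) were higher in H1299shRAD9 in all 5 states, beside 38.4% of all features. COX8A, COX8C, NDUFAF3, NDUFC2 and NDUFV1 (5.68%) were lower in all 5, beside 18.3%. The states share no arrays, but a direct state and its bystander state share dishes. An unadjusted p below 0.05 in 3 or more states was reached by 10 members, or 11.4%, and by 18.7% of all features.

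Members with several probes did not always give one answer. In CTL a probe for SDHC, a membrane anchor of complex II, was called at -0.45 and another at 0.52 (adjusted p = 0.0287 and 0.0337), while the brightest gave -0.01. One of the 4 SDHA probes was called at -0.35 and one NDUFA10 probe at 0.47, neither of them the brightest of its gene. The remaining calls over all probes fell on the brightest probe, in COX6B2 and NDUFA12, among the 18 members with more than 1 probe.

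Replicate numbers carried more of the members' variation than the states did. Over the 25 arrays of H1299shRAD9, replicate number took a median of 38.6% of a member's sum of squares and state 5.12%, beside 35.2% and 8.61% over all features. In H1299 the medians were 22.4% and 13.1%, beside 31.2% and 11.1%. In 6 members of H1299shRAD9 the share of replicate number was over 80%, as in 8.22% of all features, and in H1299 in no member, as in 0.528%. These members were singled out after their values were seen, and no test was made. COX6B1, the widely expressed form of subunit VIb, was the furthest: replicates 1 to 5 of H1299shRAD9 had means over the 5 states of 9.53, 9.41, 10.29, 10.26 and 10.41, and replicate number took 96.8% of its sum of squares. No array of replicates 1 and 2 rose above 9.67 and none of replicates 3 to 5 fell below 10.12. On the single slide that held arrays of replicates 2 and 3, COX6B1 stood at 9.43 in DBN replicate 2, 9.30 in BN replicate 2, 10.27 in DBP replicate 3 and 10.20 in BP replicate 3.

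NDUFA8, an accessory subunit of complex I, showed the same arrangement, with replicate means of 8.39, 8.44, 9.08, 9.03 and 9.02. UQCRFS1 had 9.97, 9.97, 10.49, 10.46 and 10.49, NDUFAF2 had 5.43, 5.51, 6.09, 6.08 and 6.16, and ATP5SL had 8.53, 8.59, 9.18, 9.22 and 9.23. NDUFAF3, an assembly factor of complex I, ran the opposite way at 8.81, 8.69, 8.13, 8.11 and 8.02. In all 6, replicates 1 and 2 lay apart from replicates 3 to 5 in every state. Most H1299shRAD9 arrays of replicates 1 and 2 were scanned on a day numbered 1, and those of replicates 3 to 5 on days 2 to 4. The exceptions were DBN and BN replicate 2 on day 2 and BP replicate 1 on day 6. The clone was not recorded for any array. The parts of clone, slide and scan day in this pattern were not tested. The comparisons of lines were unpaired, so that this spread stands in their error.

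**Figure D4:**
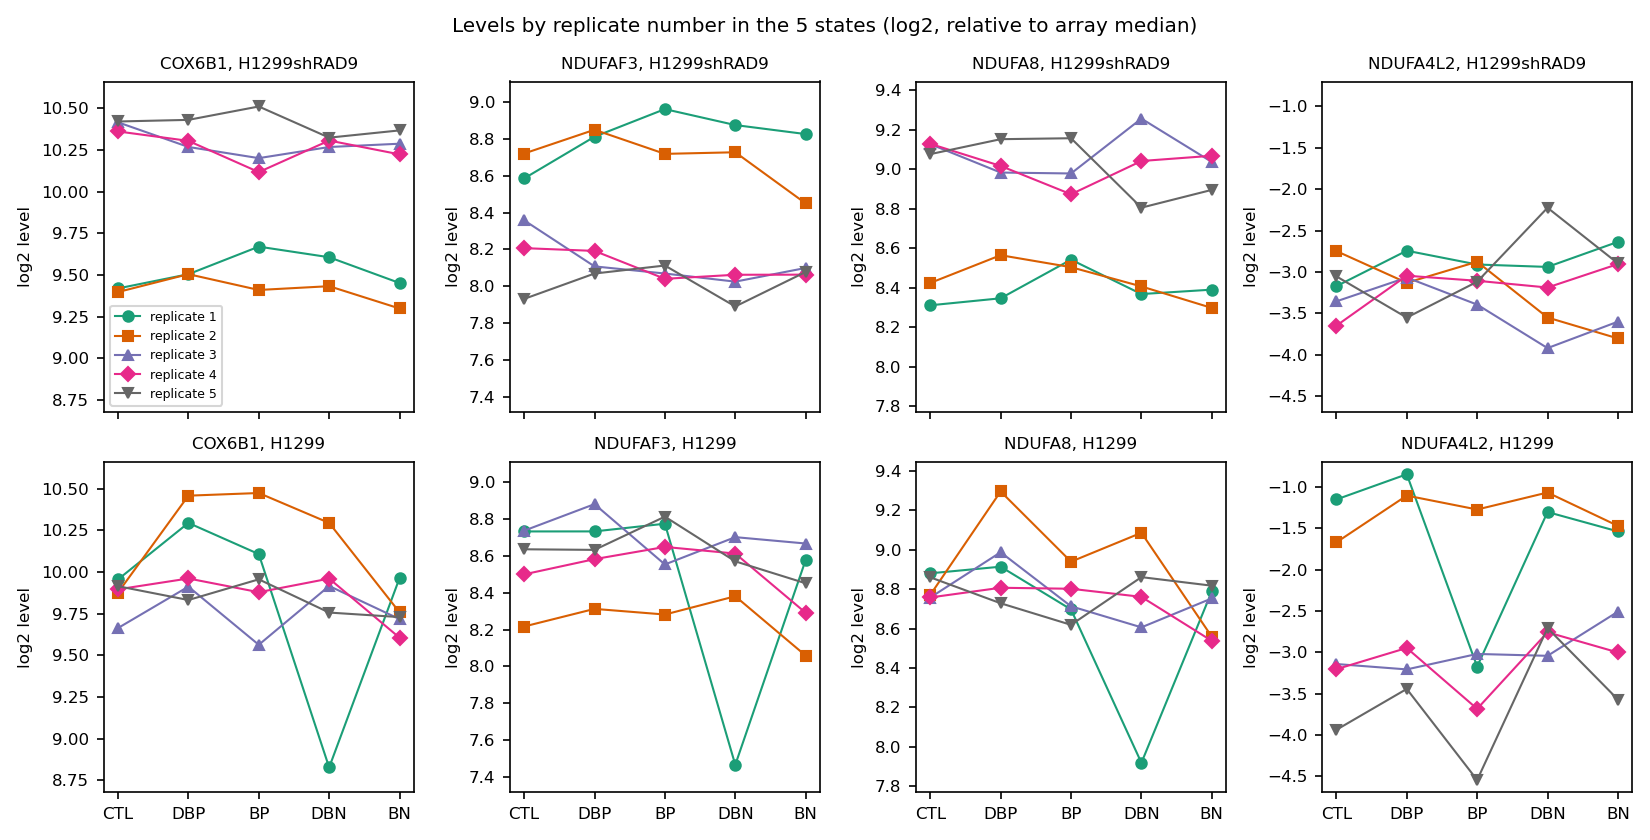
Log2 level of COX6B1, NDUFAF3, NDUFA8 and NDUFA4L2 in the 5 states, with a line for each replicate number, in H1299shRAD9 (top) and H1299 (bottom) on one scale per gene. In H1299shRAD9 replicates 1 and 2 lie apart from replicates 3 to 5 for the first 3 genes, while in H1299 replicates 1 and 2 of NDUFA4L2 lie high in all states but BP, where replicate 1 is at -3.17, and the low NDUFA4L2 values are not above background.

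The next question was whether direct or bystander exposure moved the chain, taking each state against the CTL arrays of the same line with replicate number as a block. The study paired its dishes with matched controls, and that the numbers in the labels mark these sets is an assumption. A feature was called at p below 0.006 with an adjusted p below 0.1. In H1299shRAD9 no member was called in DBP, BP, DBN or BN, where 1.3%, 1.62%, 2.93% and 0.0299% of all features were called. The smallest adjusted p of a member was 0.298, 0.373, 0.186 and 0.315, and 4, 3, 2 and 2 members had an unadjusted p below 0.05. These counts are 4.55%, 3.41%, 2.27% and 2.27% of the members, beside 13.9%, 10.8%, 14.3% and 13.5% of all features. In H1299 no member was called either, where 0.0349%, 0%, 0.00996% and 0% of all features were called. There 0, 2, 0 and 5 members (0%, 2.27%, 0% and 5.68%) had an unadjusted p below 0.05. The shares of all features were 5.57%, 5.68%, 3.25% and 3.42%. The 4 comparisons of a line share their CTL arrays.

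The intervals were narrow enough to bound most changes. In H1299shRAD9 the 95% interval of the difference lay within 1.5-fold either way for 86, 86, 86 and 85 of the 88 members in those 4 states. For H1299 the counts were 83, 71, 10 and 85, the low one being that of DBN, which holds the array that stood apart. Median differences of the members were 0.05, 0.03, 0.02 and -0.00 in H1299shRAD9 beside 0.03, 0.02, -0.01 and 0.00 for all features. The H1299 medians were 0.06, -0.08, -0.12 and -0.10, beside 0.02, -0.06, -0.10 and -0.05.

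Of single members, chosen here for their small p, NDUFAF2, an assembly factor of complex I, had the smallest p in 3 of the 4 H1299shRAD9 comparisons. It differed by 0.26 ± 0.10, 0.25 ± 0.10, 0.27 ± 0.08 and 0.23 ± 0.08 (SE) in DBP, BP, DBN and BN, higher than CTL in 4, 5, 5 and 5 of the 5 pairs, with adjusted p from 0.186 to 0.373. NDUFS1, the largest subunit of complex I, differed by 0.23 ± 0.09 in DBP and 0.18 ± 0.07 in BN, higher in all 5 pairs of each and not called. Both sets of values rest on the same CTL arrays. In H1299, NDUFB11, a membrane subunit of complex I, was lower than CTL in 4 of 5 pairs in BP and in all 5 in BN, by 0.40 and 0.27 (differences of -0.40 and -0.27), with adjusted p of 0.823 and 0.993.

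Directly hit dishes were then set against their own bystanders. No member was called for DBP minus BP or DBN minus BN in H1299shRAD9, where 0.0797% and 0.0797% of all features were called. None had an unadjusted p below 0.05, beside 4.16% and 2.24% of all features. In H1299 the same comparisons gave no call at 0% and 0.00498% of all features. With 6 and 1 members, 6.82% and 1.14% had an unadjusted p below 0.05, beside 6.94% and 2.70% of all features. NDUFB11, NDUFA3 and SDHA were higher in DBP than in BP in all 5 H1299 pairs, by 0.39, 0.37 and 0.37, with an adjusted p of 0.656 each. They were not alone, as 76 of the 88 members (86.4%) were higher there, beside 59.2% of all features. The median difference was 0.13 over the members and 0.05 over all features. These values depend on the scaling. The member median had a mean of 8.45 in H1299 DBP and 8.28 in H1299 BP under median scaling. After quantile normalization the means were 15.80 and 15.77, with SDs of 0.10 and 0.08.

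Whether the response to exposure differed between the lines was tested as an interaction. No member was called for DBP, BP, DBN or BN, where 0%, 0%, 0.0149% and 0% of all features were called. An unadjusted p below 0.05 was reached by 0, 2, 2 and 3 members (0%, 2.27%, 2.27% and 3.41%). The shares of all features were 7.74%, 6.51%, 7.05% and 7.30%. For BN the smallest p belonged to NDUFS6, with a difference in response of 0.38 (95% interval 0.09 to 0.66, adjusted p = 0.628). The interval of the difference lay within 2-fold either way for 86, 85, 84 and 86 of 88 members. The share of all features within 2-fold was 86.1%, 85.3%, 78.4% and 92.8%. Within 1.5-fold, the bound used for the exposures above, it lay for 71, 55, 9 and 77 members.

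**Figure D5:**
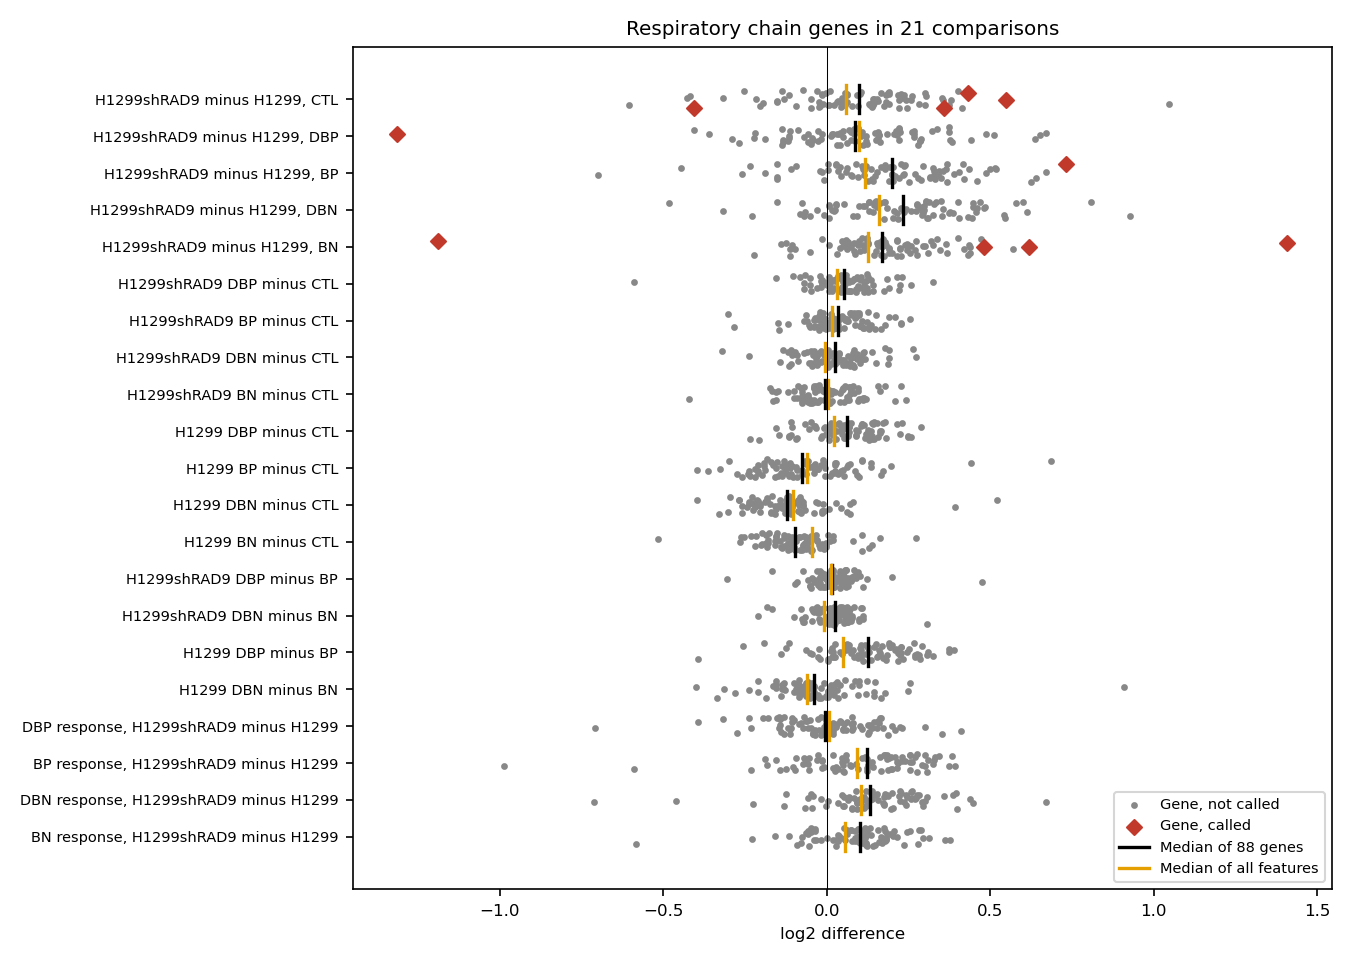
Log2 differences of the 88 genes (grey points, red diamonds where called) in all 21 comparisons (rows), with the median of the 88 genes (black bar) and of all features (orange bar). The 10 called differences lie in the comparisons of lines, and points of the remaining 16 comparisons gather near 0.

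Genes that serve the chain without being members were followed by lists of their names. Of the 13 protein-coding genes of mitochondrial DNA, ND6 was called higher in H1299shRAD9 in CTL, DBP, DBN and BN, by 1.51 ± 0.38, 1.41 ± 0.41, 1.96 ± 0.37 and 1.99 ± 0.42 (SE). Its adjusted p was 0.0229, 0.0871, 0.0187 and 0.0212. In BN it stood at 4.07, 4.34, 3.68, 4.49 and 3.88 against 0.99, 1.73, 1.44, 2.67 and 3.70 in H1299, so that H1299 was both lower and more spread. ND6 encodes the one complex I subunit transcribed from the light strand, and the other 12 genes were called in no comparison of lines. The ND6 call held in all 19 alternatives in DBN, in 18 of 19 in BN, in 16 of 20 in CTL and in 5 of 19 in DBP.

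In H1299shRAD9 some mitochondrial genes were called against CTL where no nuclear member was. ND1 went from 5.30, 5.33, 5.13, 5.36 and 5.17 in CTL to 4.88, 5.03, 4.43, 4.87 and 4.86 in DBP, lower in all 5 pairs (difference -0.44, adjusted p = 0.0915). ND2 was lower in DBP (difference -0.66, adjusted p = 0.0985) and in DBN (difference -0.69, adjusted p = 0.0705), where it went from 5.40, 6.09, 5.93, 5.89 and 5.66 to 5.28, 5.00, 5.13, 5.09 and 5.02. CYTB was lower in DBN (difference -0.78, adjusted p = 0.0763). The unirradiated BN bystanders held low values too, though these were not called. CYTB stood there at 8.91, 8.11, 8.09, 9.14 and 8.97, against 9.02, 9.27, 9.75, 9.81 and 9.58 in CTL. ND2 in BN stood at 5.57, 4.74, 4.63, 5.50 and 4.89, below CTL in all but replicate 1. Low values were thus seen in BN bystanders as well, but no fall there passed the call, and all these comparisons share the CTL arrays. ND4L was higher in DBN by 0.65 and ATP8 higher in BP by 0.73 (adjusted p = 0.0459 and 0.0495). These transcripts come from long shared precursors, and ND4L and ATP8 overlap their neighbours, so that these probes may read more than 1 transcript. Under the alternatives tried, the ND2 call held in 2 of 16 in DBP and 10 of 16 in DBN, that of ND1 in 6 of 16, that of ATP8 in 7 of 16, and those of CYTB and ND4L in 8 of 16 each.

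The next lists are set beside the 13%, 5.39%, 6.57%, 2.47% and 7.52% of all features called in CTL, DBP, BP, DBN and BN. Of the 15 tested regulators of mitochondrial biogenesis, 2, 0, 2, 1 and 1 were called in these states in turn, all of them higher in H1299shRAD9. In CTL this is near the share of all features called in either direction and above the 6.9% called higher. PPRC1, a coactivator of NRF1, was called in CTL, BP and BN at 0.84, 0.98 and 0.88, MTERF, a mitochondrial termination factor, in CTL and BP at 0.52 and 0.66, and TFAM, which packages and transcribes mitochondrial DNA, in DBN at 1.32. Of 77 tested genes named for the mitochondrial ribosome, 4, 0, 5, 0 and 5 were called, all higher. In CTL, BP and BN this is below the share of all features called in either direction. Set beside features called higher alone, it is below the share in CTL (6.9%) and above it in BP (4.06%) and BN (4.48%). Among them was MRPL22 in CTL, BP and BN at 0.42, 0.59 and 0.53. Of 31 other assembly factors, 3, 1, 2, 0 and 4 were called. FAM36A (COX20), which assembles complex IV, was called in CTL, DBP, BP and BN at 0.49, 0.61, 0.80 and 0.54, and ECSIT, which assembles complex I, in CTL, BP and BN at 0.44, 0.63 and 0.72. FOXRED1, another assembly factor of complex I, was called lower in CTL at -0.47, and this held in 18 of 20 alternatives. The ECSIT call in CTL held in 4 of 20 and the FAM36A call in DBP in 9 of 18. Of the 14 citric acid cycle genes, CS was called higher in CTL and BP at 0.48 and 0.63 and IDH2 lower in CTL at -0.60. Of the 14 genes for coenzyme Q and cytochrome c, CYCS, the electron carrier itself, was called higher in CTL at 0.38 and COQ5 lower at -0.44. The CYCS call held in 2 of 18 alternatives and the CS calls in 4 of 19 in CTL and 8 of 18 in BP, while those of COQ5 and IDH2 held in 15 of 18 and 15 of 20. These lists were described by counts, with no test over a list.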

How the data were processed

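The series holds 50 one-colour Agilent arrays (10 groups of 5). The authors deposited scanner output, whose processed signal is an intensity after the scanner software's background subtraction, and a table of log2 values of 9502 features, which was used as an alternative only. Its column medians ran from 8.86 to 9.30, and each column correlated with the log2 processed signal of its array at 0.999 or higher. From the deposited intensity, control and outlier spots were left out, spots of a probe were averaged, log2 was taken and the array's median subtracted. Of 34127 features, 20079 were well above background on over 75% of the arrays. Each gene was read by its brightest probe. The number of arrays limits the precision.

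Each comparison was fitted with limma 3.58.1 in R 4.3.3 on the groups compared, with Benjamini-Hochberg adjustment over all 20079 features, and called at p below 0.005 (comparisons of lines) or 0.006 (all others) with a false discovery rate under 10%. Comparisons of lines were unpaired. Comparisons within a line took the replicate number as a block, on the assumption that a number in the labels marks one of the sets of dishes and matched controls that the study paired, which the sources used here do not state. Same-numbered arrays of a line deviated together at a mean correlation of 0.15 to 0.60, with single values down to -0.18 in H1299, and of different lines at -0.06 to 0.07. Genes named by rule were 12 central subunits, the members with a second isoform, RAD9A, and in each comparison the called members with the largest rises and falls, and any others were named after their values were seen. Some of these are not reported here. Members and lists were chosen with earlier results of these data known. The study calls the 5 arrays of a group biological replicates. Code was tested on simulated data. The alternatives were 75th percentile and quantile scaling, normexp background correction with an offset of 50, other filters, the deposited log2 table, the mean over probes, slide and replicate blocks, one fit of all groups, and leaving out each replicate.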

Additional observations from a re-analysis of the deposited data

Results flagged for a closer look

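Of 260 groups of 5 arrays tested, 13 held an array whose gap to its nearest neighbour was large against the group's range, and chance flags about 1 group in 20. Directly irradiated H1299 DBN replicate 1, which stood apart on the share of probes above background, was low for CYC1 (6.16, the others 7.47 to 7.83) and UQCRFS1 (9.06, the others 10.06 to 10.18) and high for COX4I2 (0.0844, the others -3.30 to -2.55). H1299shRAD9 DBP replicate 1 was low for COX7B2 (6.25), ATP5G3 (10.04), NDUFAF4 (5.84) and NDUFS6 (8.17). H1299shRAD9 BN replicate 3 was low for SDHA (7.94, the others 8.27 to 8.38) and NDUFA12 (7.64, the others 8.41 to 8.70). In H1299, DBP replicate 4 was low for COX6A2 (-1.63) and CTL replicate 3 for UQCRFS1 (9.77, the others 10.17 to 10.25). RAD9A was high in H1299shRAD9 DBN replicate 1 (4.26, the others 3.59 to 3.77). The median level of the members was low in H1299 BN replicate 2 (8.06, the others 8.34 to 8.43). No response of a member was called as different between the lines.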

How the results depend on the processing

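No called member turned direction under any alternative run, while over the repeats of the 10 called differences 121 kept the call and 65 missed it. These counts include COX8C, whose calls are no support for a difference, with 18 of 19 kept in DBP and 16 of 19 in BN. The count of members called in CTL, 4, was 2 with no background filter or with the authors' log2 table, and 1 with a variation criterion, slide as a random block or all 10 groups in one fit. In DBP, 1 became 2 under quantile normalization, no filter, the authors' table or the fit of all groups, and 0 under normexp. In BP, 1 became 0 under quantile normalization, no filter or the authors' table, and 6 in the fit of all groups. In DBN, 0 became 1 under 75th percentile or quantile scaling and 7 in the fit of all groups. In BN, 4 became 0 under normexp and 2 with the authors' table. Taking the replicate number as a block between lines, where the numbers do not pair the samples, gave 1 member called for CTL, 2 for DBP, 1 for BP, 1 for DBN and 5 for BN, and comparisons within a line gave 0 without the block as with it.

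Leaving out 1 array gave 1 to 7 members for CTL (7 without H1299shRAD9 replicate 1, 1 without replicate 4), 1 to 6 for DBP (6 without H1299shRAD9 replicate 1), 0 to 6 for BP (6 without H1299shRAD9 replicate 1 or H1299 replicate 4), 0 to 1 for DBN (1 without H1299 replicate 1) and 2 to 5 for BN (2 without H1299shRAD9 replicate 3). Within H1299shRAD9, DBP against CTL gave 0 to 1 (1 without replicate 1) and BP against CTL 0 to 1 (1 without replicate 3). Slide as a fixed block, chosen after seeing the data, and the alternatives for the pathway genes changed no direction, with 511 repeats of the called pathway genes keeping the call and 311 missing it. The cause of these shifts was not tested.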
